A study of Mus musculus with 6 samples.

Results

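The Bcl2 family of apoptosis regulators was described in mouse embryonic stem cells (mESCs) through 10 of its genes, chosen by name. They were the prosurvival genes Bcl2, Bcl2l1 and Mcl1, the BH3-only genes Bcl2l11, Bmf, Bik, Bbc3 and Pmaip1, and the effector genes Bax and Bak1. They are 10 of the 53390 genes to which the deposited transcripts were assigned by GENCODE mouse M21 names.

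The family controls the mitochondrial pathway of apoptosis. Effector proteins open pores in the outer mitochondrial membrane and let cytochrome c escape, prosurvival proteins bind the effectors and keep them inactive, and BH3-only proteins carry stress signals by occupying the prosurvival proteins or by activating the effectors directly. Pluripotent cells are known for a low threshold to this pathway, and much of the control of Mcl1 and of the Bcl2l11 product Bim acts on the proteins, through phosphorylation by ERK and GSK3, so that transcript levels describe one layer of it.

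The libraries came from TKO mESCs, which lack all 3 DNA methyltransferases (Dnmt1-/-, Dnmt3a-/-, Dnmt3b-/-) and derive from the male J1 line of strain 129S4/SvJae. Poly(A) RNA was sequenced from cells in medium with 15% FCS and LIF at 500 U/ml (TKO-serum, 3 libraries) and from cells kept for 14 days in N2B27 medium with 2i, that is PD0325901 against MEK (1 µM) plus CHIR99021 against GSK3 (3 µM), and LIF at 1000 U/ml (TKO-2i, 3 libraries). Both groups shared the triple knockout, the line and feeder-free growth on gelatin, so the comparison asks which transcripts differ between the culture media in cells that lack these enzymes, and the inhibitors, the serum, the basal medium and the LIF dose cannot be told apart. Replicates are biological replicates per the labels. Totals ran from 38274042 to 51932739 estimated counts per library. Values after ± are standard deviations over 3 libraries.

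Of the targeted genes, Dnmt1 stood at 149.6, 154 and 155 CPM in TKO-2i and 129, 129.6 and 129 CPM in TKO-serum, where CPM is the estimated count scaled to the size of the library after TMM. Dnmt3a stood at 7.14, 7.46 and 7.36 CPM in TKO-2i and 30.2, 29.4 and 30.7 CPM in TKO-serum, and Dnmt3b at 18.99, 20.3 and 20.6 CPM in TKO-2i and 43.1, 42.3 and 43.95 CPM in TKO-serum. Transcripts of all 3 genes were thus counted in every library, and their log2 fold changes, TKO-2i over TKO-serum, were 0.24, -2.04 and -1.11. The deposited values cover whole transcripts and do not set the deleted parts apart, so these levels check nothing about the deletion.

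Markers of mESCs were abundant in all 6 libraries. The 10 marker genes summed to 5468, 5062 and 4997 TPM in TKO-2i and 6121, 5791 and 5912 TPM in TKO-serum, with Dppa5a the most abundant at a mean of 2274 and 2659 TPM, where TPM is a level per transcript length. Of these 10 genes 4 were higher and 3 lower in TKO-2i. Fibroblast or feeder markers, 8 genes, summed to 6.10, 6.79 and 5.98 TPM in TKO-2i and 6.48, 7.06 and 6.58 TPM in TKO-serum. Thy1 was their most abundant gene per length, and Col3a1, Lum and Postn averaged under 3 counts over all 6 libraries. The others averaged, in TKO-2i and TKO-serum, 152 and 165 counts for Col1a1 and 16 and 49.7 for Col1a2. Dcn averaged 0.333 and 11 counts and Pdgfrb 412 and 140. Of those 8 genes 4 could be tested, 1 was higher and 2 were lower.

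Markers of differentiating cells were low beside those of mESCs but moved with the medium. The 6 primitive endoderm markers summed to 4.56, 5.50 and 4.32 TPM in TKO-2i and 9.24, 10.6 and 11.6 TPM in TKO-serum, and 5 of them were lower in TKO-2i and 0 higher. Gata4, the most abundant, averaged 2.41 and 3.75 TPM, and Sox7 was near the floor in TKO-2i at 4, 7 and 6 counts. The 4 neuroectoderm markers summed to 80.2, 78.3 and 78.2 TPM in TKO-2i and 126, 129 and 126 TPM in TKO-serum, nearly all of it Tubb3, with 3 lower and Neurog2 at 0 to 2 counts. The 4 mesoderm markers summed to 11.6, 11.3 and 17.1 TPM in TKO-2i and 1.59, 2.06 and 1.87 TPM in TKO-serum, with T (brachyury) the most abundant in TKO-2i but the least in TKO-serum, at 11.8 and 0.271 TPM, 1 higher and 1 lower. The part of such cells in the results on the Bcl2 family was not tested. In bulk RNA, fewer cells of a type and less RNA per cell cannot be told apart.

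The 5 BH3-only genes were lower in TKO-2i. All 5 fell, by 0.72 to 1.70 on the log2 scale, the prosurvival genes Mcl1 and Bcl2 fell as well while Bcl2l1 did not pass the test, and among the effectors Bak1 rose and Bax did not pass the test on counts. Of the 10 genes, all of which passed the filter on low counts, 7 were called lower and 1 higher, where called means an adjusted p under 0.05 in the edgeR quasi-likelihood test, Benjamini-Hochberg adjusted over all 18177 genes tested. Over all those genes 62.5% were called, 30.6% lower and 31.9% higher, so a call by itself was common in this comparison. Every count of called genes in the marker lists above and the gene lists below is to be read beside these shares. The median log2 fold change was -0.91 over the 10 genes and 0.01 over all genes tested. A change past a log2 fold change of 2 in either direction was called in 9.19% of all genes and in 0 of the 10. That number over all genes, 1671, depended on the setting. It was 692 with at least 10 counts in every library, 322 in limma on log2(TPM + 1) and 2593 with no filter on low counts. The p-values measure the spread between these 6 libraries.

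**Figure D1:**
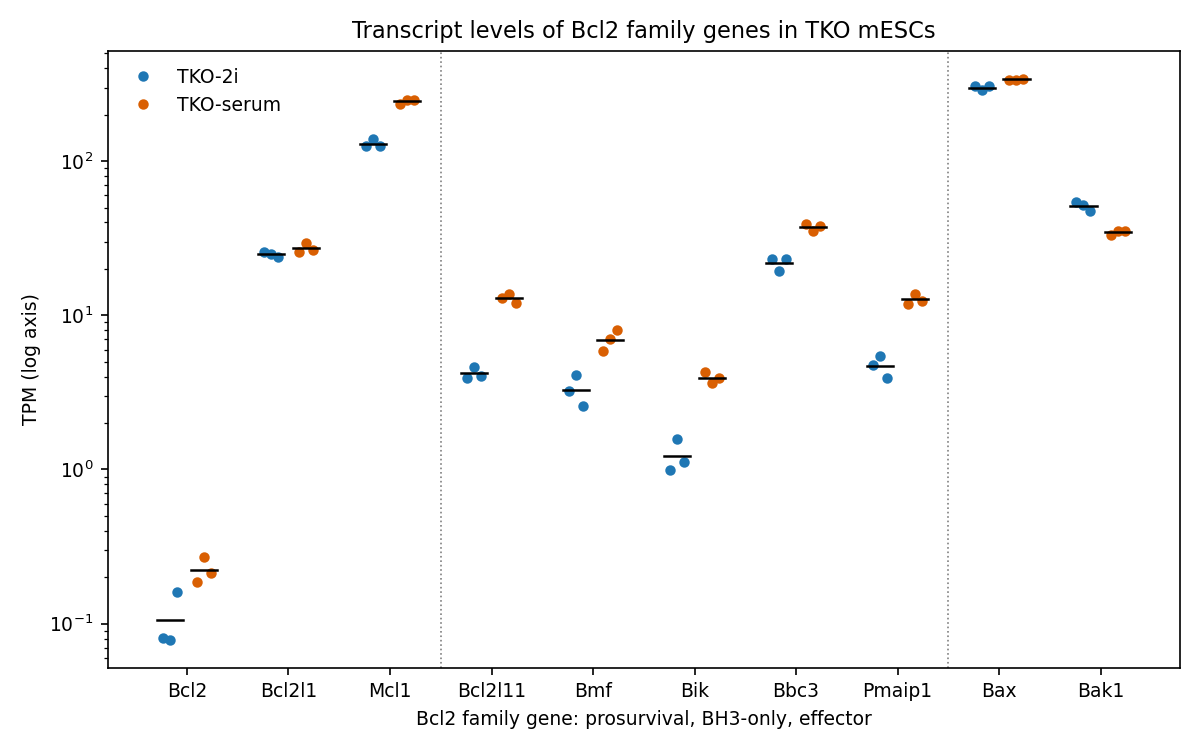
Level of each of the 10 genes in TPM on a log axis, with 1 point per library, lines at the group means and dotted lines between prosurvival, BH3-only and effector genes. Bak1 sits higher in all 3 TKO-2i libraries than in any TKO-serum library, and the other 9 genes sit lower, Bcl2l1 narrowly, as did 35.6% of all genes tested.

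Mcl1 (ENSMUSG00000038612, chr3:95658788-95663176, plus strand, GRCm38 as for all positions here) encodes a short-lived prosurvival protein that restrains Bak1 and Bax and on which many cell types depend. It stood at 227, 225 and 223 CPM in TKO-2i and 382, 379 and 374 CPM in TKO-serum, replicates 1 to 3 in order. The replicates of each group lay close together and the groups were far apart, with means of 225 ± 2.004 CPM in TKO-2i against 378 ± 3.68 CPM in TKO-serum. Mcl1 fell by 0.75 on the log2 scale (log2 fold change -0.75, standard error 0.04, n = 3 and 3; adjusted p = 2.2e-06 in the edgeR quasi-likelihood test, Benjamini-Hochberg adjusted), lower in 3 of 3 TKO-2i libraries than in every TKO-serum library.

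Bcl2l1 (ENSMUSG00000007659, chr2:152780668-152831728, minus strand) encodes Bcl-xL, the prosurvival protein that holds Bax away from mitochondria. Its levels were 47.5, 41.4 and 45.7 CPM in TKO-2i and 45.5, 45.2 and 44.4 CPM in TKO-serum. TKO-2i replicate 1 was the highest of all 6 libraries and TKO-2i replicate 2 the lowest, so the groups overlapped. The log2 fold change was -0.01 with a standard error of 0.06, and the edgeR quasi-likelihood test, Benjamini-Hochberg adjusted, gave an adjusted p of 0.94. With single libraries left out the value lay between -0.06 and 0.05, positive without TKO-2i replicate 2 or TKO-serum replicate 1. Per length the levels were 25.8, 24.98 and 23.8 TPM in TKO-2i and 25.9, 29.2 and 26.5 TPM in TKO-serum, narrowly apart, and no alternative called the gene (Benjamini-Hochberg adjusted p at least 0.166).

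Bcl2 itself (ENSMUSG00000057329, chr1:106538178-106714274, minus strand), the founding prosurvival gene and a mainstay of lymphocytes and neurons, was close to absent. It gave 12, 11 and 18 estimated counts in TKO-2i and 25, 45 and 34 in TKO-serum, or 0.268, 0.250 and 0.422 CPM in TKO-2i and 0.648, 0.846 and 0.740 CPM in TKO-serum, above the 0.0578 to 0.0784 CPM that 3 counts make in these libraries. Every TKO-2i library lay under every TKO-serum library. Bcl2 fell by 1.26 on the log2 scale (standard error 0.27; adjusted p = 0.0034 in the edgeR quasi-likelihood test, Benjamini-Hochberg adjusted), a change at a level where limma on log2(TPM + 1) gave -0.15. Per transcript length it made up a mean of 0.106 and 0.223 TPM, against 130.0 and 244 TPM for Mcl1 and 24.8 and 27.2 TPM for Bcl2l1.

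The prosurvival transcript pool of these 3 genes was mostly Mcl1 in both media. Summed over the 3 genes the level was 151, 165 and 149 TPM in TKO-2i and 259, 279 and 276 TPM in TKO-serum, means of 155 ± 8.62 TPM against 272 ± 10.8 TPM, or 0.570 times the TKO-serum level in TKO-2i. Of that sum Mcl1 made up 82.9, 84.8 and 83.9% in TKO-2i and 89.95, 89.4 and 90.3% in TKO-serum, and Bcl2l1 17.04, 15.2 and 15.99% in TKO-2i and 9.98, 10.5 and 9.59% in TKO-serum. The share of Bcl2l1 was thus larger in TKO-2i, while its own mean TPM was lower. All such sums and shares of sums are descriptions and were not tested.

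Bcl2l11 (ENSMUSG00000027381, chr2:128126038-128162547, plus strand) encodes Bim, a BH3-only protein that binds all the main prosurvival proteins and can activate Bax and Bak1. Its levels were 8.55, 9.80 and 8.65 CPM in TKO-2i and 28.8, 30.8 and 27.9 CPM in TKO-serum. By the edgeR fold TKO-2i was at 0.309 times the TKO-serum level, the lowest among the 10 genes on counts, with no overlap between libraries. Bcl2l11 fell by 1.70 on the log2 scale (log2 fold change -1.70, standard error 0.08, n = 3 and 3; adjusted p = 4.7e-07 in the edgeR quasi-likelihood test, Benjamini-Hochberg adjusted). Per length it averaged 4.20 ± 0.390 TPM in TKO-2i against 12.96 ± 0.870 TPM in TKO-serum, a ratio of 0.324, where Bik had the lower one, 0.311.

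Bik (ENSMUSG00000016758, chr15:83526862-83544634, plus strand), a BH3-only gene whose protein sits largely at the endoplasmic reticulum, was counted rarely. It gave 31, 39 and 33 estimated counts in TKO-2i and 104, 114 and 113 in TKO-serum, or 0.692, 0.887 and 0.774 CPM in TKO-2i and 2.70, 2.14 and 2.46 CPM in TKO-serum. The groups did not overlap. Bik fell by 1.63 on the log2 scale (log2 fold change -1.63, standard error 0.17, n = 3 and 3; adjusted p = 5.0e-05 in the edgeR quasi-likelihood test, Benjamini-Hochberg adjusted).

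Pmaip1 (ENSMUSG00000024521, chr18:66458533-66465565, plus strand) encodes Noxa, a p53-inducible BH3-only protein that binds Mcl1 in particular and promotes its degradation. It stood at 6.23, 7.16 and 5.35 CPM in TKO-2i and 15.04, 17.3 and 15.1 CPM in TKO-serum, and the highest TKO-2i library was under the lowest TKO-serum library. Pmaip1 fell by 1.34 on the log2 scale (log2 fold change -1.34, standard error 0.11, n = 3 and 3; adjusted p = 1.6e-05 in the edgeR quasi-likelihood test, Benjamini-Hochberg adjusted). Noxa and its binding partner Mcl1 were thus both lower in transcript level, Pmaip1 by the larger factor.

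Bmf (ENSMUSG00000040093, chr2:118528757-118549687, minus strand) encodes a BH3-only protein held at the actin cytoskeleton by dynein light chain until it is released. Its levels were 8.88, 9.03 and 8.21 CPM in TKO-2i and 18.6, 17.9 and 18.6 CPM in TKO-serum, with replicates of each group within 1 CPM of each other. Bmf fell by 1.08 on the log2 scale (log2 fold change -1.08, standard error 0.07, n = 3 and 3; adjusted p = 2.7e-06 in the edgeR quasi-likelihood test, Benjamini-Hochberg adjusted), in 3 of 3 TKO-2i libraries.

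Bbc3 (ENSMUSG00000002083, chr7:16308393-16318205, plus strand) encodes Puma, the BH3-only protein through which p53 most directly reaches mitochondria. It stood at 19.1, 15.9 and 20.3 CPM in TKO-2i and 32.6, 26.9 and 31.4 CPM in TKO-serum. Replicate 2 was the lowest library of each group, and the groups stayed apart. Bbc3 fell by 0.72 on the log2 scale, the smallest fall among these 5 BH3-only genes (log2 fold change -0.72, standard error 0.11, n = 3 and 3; adjusted p = 0.00042 in the edgeR quasi-likelihood test, Benjamini-Hochberg adjusted).

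Together, these 5 BH3-only genes summed to 36.1, 35.2 and 34.8 TPM in TKO-2i and 73.8, 73.6 and 74.4 TPM in TKO-serum, means of 35.4 ± 0.666 TPM against 73.9 ± 0.408 TPM, or 0.478 times the TKO-serum level in TKO-2i. Bbc3 was the most abundant of them per length in both media and took 64.4, 55.3 and 66.5% in TKO-2i and 52.6, 48.01 and 51.1% in TKO-serum as its share of the sum. Bcl2l11 made up 10.8, 13.2 and 11.6% in TKO-2i and 17.6, 18.8 and 16.2% in TKO-serum, so that Puma took a larger and Bim a smaller share in TKO-2i while the levels of both were lower. The sum leaves out the BH3-only genes Bid and Bad, described below, whose mean levels were higher in TKO-2i at 63.6 against 30.04 TPM and 18.9 against 9.44 TPM, so it does not stand for all BH3-only transcripts. The primitive endoderm and neuroectoderm marker sums, given above, were lower in TKO-2i too, while the mesoderm sum was higher. The part of such cells in these falls was not tested.

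Bak1 (ENSMUSG00000057789, chr17:27019810-27029009, minus strand), the effector that resides on mitochondria and is held there by Mcl1 and Bcl-xL, was alone among the 10 genes in being called higher. It stood at 110.3, 91.2 and 96.9 CPM in TKO-2i and 63.01, 59.98 and 63.5 CPM in TKO-serum. Each TKO-2i library was above all TKO-serum libraries. Bak1 rose by 0.68 on the log2 scale (log2 fold change 0.68, standard error 0.08, n = 3 and 3; adjusted p = 7.9e-05 in the edgeR quasi-likelihood test, Benjamini-Hochberg adjusted), and averaged 51.2 ± 3.39 TPM in TKO-2i against 34.7 ± 1.29 TPM in TKO-serum. It overlaps Ggnbp1 on the opposite strand, which the files list under 2 identifiers with at most 323 and 284 counts in a library.

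Bax (ENSMUSG00000003873, chr7:45461697-45466898, minus strand), the effector that moves from the cytosol to mitochondria when activated, was the most abundant of the 10 genes per length. On the count scale it stood at 208, 165 and 205 CPM in TKO-2i and 216, 192 and 204 CPM in TKO-serum, where TKO-2i replicate 2 was lowest and the groups overlapped, and the test on counts gave no call (log2 fold change -0.08, standard error 0.09, n = 3 and 3; adjusted p = 0.48 in the edgeR quasi-likelihood test, Benjamini-Hochberg adjusted). On the length-corrected scale it stood at 307, 289 and 305 TPM in TKO-2i and 338, 335 and 342 TPM in TKO-serum, and there the groups did not overlap. Limma on log2(TPM + 0.1) called it lower with a log2 fold change of -0.17 (Benjamini-Hochberg adjusted p = 0.010), so the call depends on the scale, and without TKO-2i replicate 2 the value on counts was 0.02. The median over all genes tested was itself -0.08 in that limma setting, against 0.01 in the test on counts. That median applies to each value of this setting given below. A same-strand gene that overlaps Bax, Gm45808, had at most 32.8 counts.

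The effector genes summed to 361, 341 and 353 TPM in TKO-2i and 372, 371 and 378 TPM in TKO-serum, without overlap, or 0.941 times the TKO-serum level in TKO-2i. Of this sum Bax made up 84.99, 84.8 and 86.5% in TKO-2i and 91.1, 90.4 and 90.6% in TKO-serum, with the rest Bak1. On the TPM scale the ratio of the sum lies near the typical gene. The median log2 fold change over all genes tested was -0.08 in limma on log2(TPM + 0.1), and 35.6% of them were lower in TPM without overlap.

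Ordered by mean TPM, TKO-2i read Bax, Mcl1, Bak1, Bcl2l1, Bbc3, Pmaip1, Bcl2l11, Bmf, Bik and Bcl2. In this order Pmaip1, Bcl2l11 and Bmf overlapped with their neighbours over the 3 libraries, at means of 4.70, 4.20 and 3.29 TPM, and the other steps were apart. In TKO-serum the order was Bax, Mcl1, Bbc3, Bak1, Bcl2l1, Bcl2l11, Pmaip1, Bmf, Bik and Bcl2, with overlap between Bbc3 and Bak1, at 37.4 and 34.7 TPM, and between Bcl2l11 and Pmaip1, at 12.96 and 12.7 TPM. Bbc3 thus overlapped with Bak1 in TKO-serum and lay below both Bak1 and Bcl2l1 in TKO-2i.

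The remaining genes of the Bcl2 family did not share a direction. Of 15 listed, 12 passed the filter on low counts, 6 were called higher and 4 lower, median log2 fold change 0.19, so calls in both directions stood beside the 5 falls of the BH3-only genes above. In every list gene named here and below as higher or lower by the test on counts of all 6 libraries, the 3 TKO-2i libraries did not overlap with the 3 TKO-serum libraries in CPM. The share of all genes tested without such overlap in CPM was not counted, so this separation sets no gene apart.

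Among the higher genes were further BH3-only genes. Bid, whose protein is cut by caspase 8 and links death receptors to mitochondria, stood at 99.05, 88.1 and 104 CPM in TKO-2i and 44.2, 41.9 and 43.2 CPM in TKO-serum (log2 fold change 1.17, standard error 0.07, n = 3 and 3; adjusted p = 2.0e-06 in the edgeR quasi-likelihood test, Benjamini-Hochberg adjusted). Bad, whose protein is kept inactive by growth factor signalling, stood at 19.7, 12.7 and 16.7 CPM in TKO-2i and 8.01, 6.77 and 7.20 CPM in TKO-serum (log2 fold change 1.16, standard error 0.15, n = 3 and 3; adjusted p = 0.00023 in the edgeR quasi-likelihood test, Benjamini-Hochberg adjusted). Both rose by more than 1 on the log2 scale, against the direction of Bcl2l11, Bik, Pmaip1, Bmf and Bbc3. Hrk, a BH3-only gene of neurons, stood at 3.75, 3.59 and 2.53 CPM in TKO-2i and 3.37, 3.25 and 3.70 CPM in TKO-serum and was not called.

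Bcl2l14 gave the largest rise of the list, 19.03, 17.2 and 18.5 CPM in TKO-2i and 2.41, 2.46 and 2.72 CPM in TKO-serum (log2 fold change 2.85, standard error 0.09, n = 3 and 3; adjusted p = 7.4e-08 in the edgeR quasi-likelihood test, Benjamini-Hochberg adjusted). Bcl2l13, a family member of the outer mitochondrial membrane, had a log2 fold change of 0.70, Bcl2l2, which encodes the prosurvival protein Bcl-w, 0.55, and Bcl2l12 0.36. Part of the Bcl2l2 locus also belongs to a read-through gene with Pabpn1, and limma on log2(TPM + 0.1) and log2(TPM + 1) did not call Bcl2l12 (log2 fold change 0.20 and 0.19). Bid, Bcl2l13 and Bcl2l14 lie on chromosome 6, whose genes had a median log2 fold change of 0.41, against -0.15 to 0.05 for X and the autosomes other than 6 and 11, the latter at 0.26; the part of that shift was not tested.

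The lower genes of the list were Bcl2l10, Bcl2l15, Bnip3 and Bnip3l. Bcl2l10 and Bcl2l15 were rare, with 3, 2 and 2 estimated counts in TKO-2i and 10, 14 and 21 in TKO-serum for the first and 8, 16 and 4 estimated counts in TKO-2i and 40, 64 and 49 in TKO-serum for the second. Their log2 fold changes of -2.56 and -2.36 came down to -0.43 and -1.08 in limma on log2(TPM + 1). Bnip3, a mitophagy receptor that is induced by hypoxia, stood at 39.5, 32.4 and 33.9 CPM in TKO-2i and 80.4, 76.4 and 78.1 CPM in TKO-serum (log2 fold change -1.15), and pseudogene copies of it exist. Bnip3l, its relative and the most abundant gene of the list per length, stood at 83.99, 81.9 and 80.2 CPM in TKO-2i and 87.7, 92.6 and 91.1 CPM in TKO-serum. Its log2 fold change of -0.14 had an adjusted p of 0.039 in the edgeR quasi-likelihood test, Benjamini-Hochberg adjusted, and the call was lost in 8 of 14 alternatives, among them each of 5 left-out libraries, all but TKO-2i replicate 1 (adjusted p up to 0.15).

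Bok, an effector-like gene, was not called, at 19.9, 16.6 and 19.1 CPM in TKO-2i and 19.1, 18.01 and 17.7 CPM in TKO-serum. No read was assigned to Bcl2a1a, Bcl2a1b or Bcl2a1d, near-identical copies of the prosurvival gene A1 of blood cells; a count of 0 allows up to 0.0578 to 0.0784 CPM, for counting error alone. Prosurvival transcripts other than Mcl1 and Bcl2l1 were thus few, Bcl2l2 averaging 7.89 and 5.13 TPM.

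**Figure D2:**
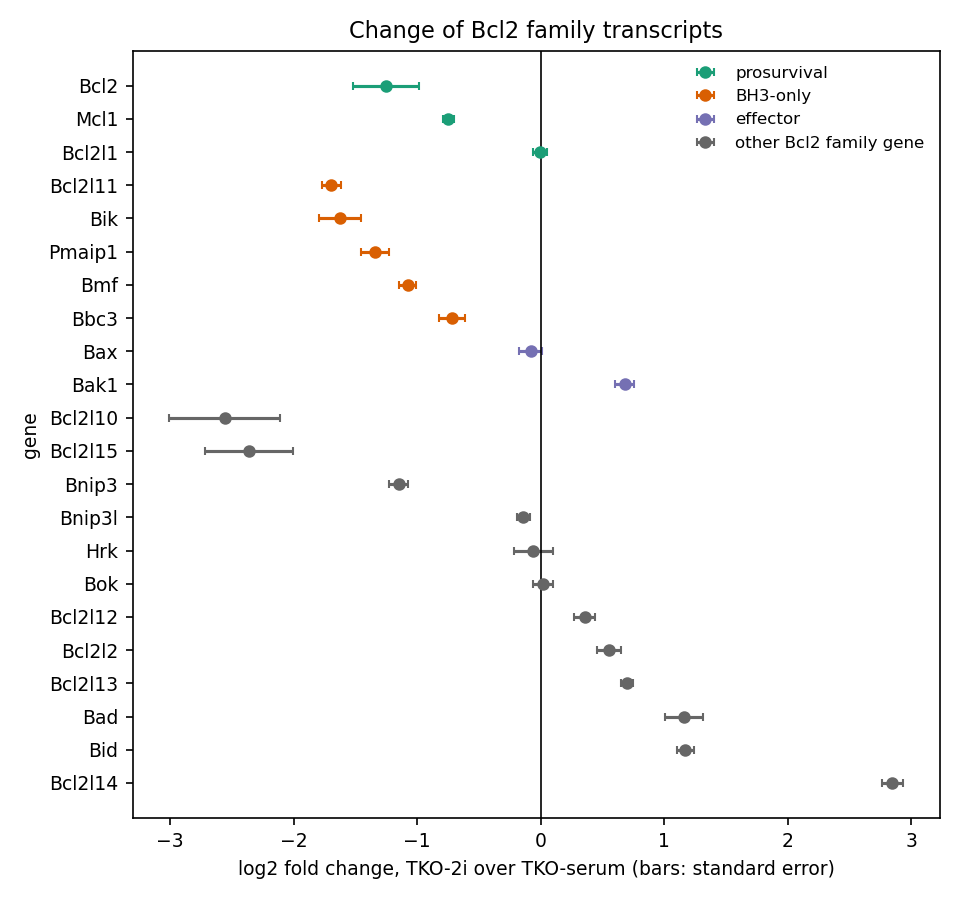
Log2 fold change, TKO-2i over TKO-serum, of the 10 genes and of the 12 other Bcl2 family genes tested, with bars for the standard error. The 5 BH3-only genes lie between -1.70 and -0.72, while Bid and Bad lie above 1.

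Downstream of the mitochondria, more genes were called higher than lower. Of 20 genes of the apoptosome, caspases and inhibitors of apoptosis proteins (IAPs), all tested, 9 were called higher and 1 lower, their median log2 fold change 0.22; without TKO-2i replicate 2 the number lower was 3. Casp9, the initiator caspase that the apoptosome activates, stood at 44.8, 43.5 and 43.4 CPM in TKO-2i and 15.5, 15.3 and 15.8 CPM in TKO-serum (log2 fold change 1.50). Casp8, the initiator caspase of death receptors, stood at 5.71, 4.55 and 4.53 CPM in TKO-2i and 1.56, 1.47 and 1.28 CPM in TKO-serum (log2 fold change 1.78, at the lowest 1.06 over the alternatives). Htra2, a mitochondrial protease that counters IAPs, had a log2 fold change of 1.03 on chromosome 6, with its median of 0.41, where Cycs (0.71) and Casp2 (0.64), looked up after the values were seen, also lie among the 9. Dffa, the inhibitor of the caspase-activated DNase, was the gene called lower, at 20.05 against 28.2 CPM in TKO-2i and TKO-serum (log2 fold change -0.49).

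Birc5 (survivin), an IAP family gene of dividing cells, averaged 293 and 227 TPM, the highest of that list over all 6 libraries, though under Vdac2 in TKO-serum. Its log2 fold change was 0.44, on chromosome 11, whose median was 0.26, and the part of that shift was not tested. For Casp9, Casp8, Htra2, Dffa and Birc5 the edgeR quasi-likelihood test, Benjamini-Hochberg adjusted, gave an adjusted p of at most 0.00043. Caspases act as proteins that are cut, and their activity is not measured by these libraries.

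Of 10 death receptor pathway genes, 8 were tested, 4 called higher and 3 lower (median log2 fold change 0.19). Adaptor genes were among the higher ones. Tradd stood at 17.1, 12.9 and 16.8 CPM in TKO-2i and 4.87, 4.21 and 4.004 CPM in TKO-serum (log2 fold change 1.84). Fadd had a log2 fold change of 0.44 (at the lowest 0.25 over the alternatives), and the receptor gene Tnfrsf1a, on chromosome 6, had 1.06. Cflar, which encodes the caspase 8 inhibitor c-FLIP, was lower at 5.42, 6.93 and 5.07 CPM in TKO-2i and 10.1, 10.1 and 10.2 CPM in TKO-serum (log2 fold change -0.80), as was the TRAIL receptor gene Tnfrsf10b, the highest of the list in TPM over all 6 libraries but under Tradd in TKO-2i, at -0.44. The largest adjusted p of these 5 genes was 0.0013 in the edgeR quasi-likelihood test, Benjamini-Hochberg adjusted. The ligand genes Fasl and Tnfsf10 did not pass the filter, with 0 to 10 counts in a library.

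Genes known to act on the BH3-only genes went both ways. Of 13, all tested, 3 were called higher and 7 lower (median log2 fold change -0.33). Foxo1, a forkhead factor that can induce Bcl2l11 and Bbc3, stood at 23.7, 27.7 and 24.8 CPM in TKO-2i and 41.1, 42.7 and 39.3 CPM in TKO-serum (log2 fold change -0.69). Trp73, a p53 relative that shares many of its targets, stood at 5.04, 5.12 and 5.28 CPM in TKO-2i and 15.7, 15.02 and 17.6 CPM in TKO-serum (log2 fold change -1.65), and Mdm2, the ubiquitin ligase of p53 and also its target, at 94.4, 102 and 96.6 CPM in TKO-2i and 149, 149 and 142 CPM in TKO-serum (log2 fold change -0.58).

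The genes called higher in that list were Atf4, Trib3 and Dynll2. Atf4, the transcription factor of the integrated stress response, stood at 336, 302 and 313 CPM in TKO-2i and 152, 135 and 149 CPM in TKO-serum (log2 fold change 1.13), and its target Trib3 had a log2 fold change of 0.88. Other genes of that response, named after the values were seen, did not share the direction: Ddit3 was called lower (log2 fold change -0.52, adjusted p = 0.0068 in the edgeR quasi-likelihood test, Benjamini-Hochberg adjusted; the larger of 2 identifiers), and Chac1 was not called (-0.13). Dynll2, the dynein light chain that tethers Bmf, had a log2 fold change of 0.51 and lies on chromosome 11. Dynll1, which tethers Bim, was the most abundant of the list per length at 548 and 625 TPM and was not called on counts (log2 fold change -0.08), but was called lower at -0.19 by limma on log2(TPM + 0.1). For Foxo1, Trp73, Mdm2, Atf4, Trib3 and Dynll2 the adjusted p was at most 8.8e-05 in the edgeR quasi-likelihood test, Benjamini-Hochberg adjusted.

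Trp53 itself, looked up after the values were seen, stood at 493, 415 and 485 CPM in TKO-2i and 533, 499 and 524 CPM in TKO-serum, without overlap, and was not called on counts (log2 fold change -0.16, adjusted p = 0.084 in the edgeR quasi-likelihood test, Benjamini-Hochberg adjusted). Per length it stood at 328, 317 and 324 TPM in TKO-2i and 379.7, 397 and 396 TPM in TKO-serum, and limma on log2(TPM + 0.1) called it lower at -0.28 (Benjamini-Hochberg adjusted p = 0.00097), as in 6 of 14 alternatives in all. Of 14 p53 targets outside the family, 3 were called higher and 7 lower, median log2 fold change -0.24, so the p53-inducible genes Pmaip1 and Bbc3 fell beside targets of both directions. Cdkn1a, the cell cycle inhibitor p21, stood at 145, 128 and 150.5 CPM in TKO-2i and 54.9, 52.4 and 55.9 CPM in TKO-serum (log2 fold change 1.38). Tigar, a regulator of glycolysis on chromosome 6, had a log2 fold change of 1.13, and Phlda3, which restrains Akt, 0.47.

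Lower p53 targets included Eda2r at 30.9 against 59.02 CPM (log2 fold change -0.93), Perp, a desmosome and apoptosis gene, at 8.58 against 16.2 CPM (-0.92), and Zmat3 at 114 against 155 CPM (-0.43), each TKO-2i against TKO-serum. Ccng1, the most abundant of the list per length, had a log2 fold change of -0.43 against a median of 0.26 on its chromosome 11. The adjusted p of the 7 p53 targets named was at most 0.0016 in the edgeR quasi-likelihood test, Benjamini-Hochberg adjusted.

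Genes for the turnover of the Mcl1 and Bim proteins were mostly not called in the main test. Of 7, 6 were tested, 2 called higher and 0 lower by edgeR, median log2 fold change -0.03. The number lower was 1 to 3 in 10 of 14 alternatives. With the replicate number as a block 2 were called higher and 3 lower. With no filter on low counts, or without TKO-2i replicate 2, 2 were higher and 2 lower, so most were called in these 3 alternatives. Btrc, which encodes the ubiquitin ligase subunit that recognises phosphorylated Bim and Mcl1, stood at 48.5, 49.3 and 47.96 CPM in TKO-2i and 38.1, 35.1 and 35.1 CPM in TKO-serum (log2 fold change 0.43, adjusted p = 0.00013 in the edgeR quasi-likelihood test, Benjamini-Hochberg adjusted). Trim17 was the other called gene, at 1.58, 1.27 and 1.67 CPM in TKO-2i and 0.259, 0.507 and 0.479 CPM in TKO-serum (log2 fold change 1.82, at the lowest 0.39 over the alternatives), named after its values were seen. Ube2s, the most abundant per length, stood at 439.7, 323 and 375 CPM in TKO-2i and 463, 378 and 416 CPM in TKO-serum and was not called on counts, with a log2 fold change of -0.14; limma on log2(TPM + 0.1) called it lower at -0.29, as did the test on counts without TKO-2i replicate 1, at -0.28, and with the replicate number as a block, at -0.15. The call of Btrc was lost in limma on log2(TPM + 1), with a log2 fold change of 0.21 and a Benjamini-Hochberg adjusted p of 0.0503.

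The output of MEK and ERK signalling, which PD0325901 blocks, was lower in TKO-2i. Of 10 genes, all tested, 9 were called lower and 1 higher (median log2 fold change -1.66), and 4 were past a log2 fold change of 2. The feedback phosphatase gene Dusp6 stood at 4.86, 4.64 and 4.83 CPM in TKO-2i and 36.4, 36.8 and 35.3 CPM in TKO-serum (log2 fold change -2.92) and Dusp4 at 2.21, 2.05 and 1.78 CPM in TKO-2i and 18.5, 19.7 and 18.4 CPM in TKO-serum (-3.23). The immediate early gene Egr1 stood at 15.3, 16.6 and 22.6 CPM in TKO-2i and 103, 104 and 98.5 CPM in TKO-serum (log2 fold change -2.48).

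The ETS factor genes of that list split. Etv5, its most abundant gene per length, stood at 406, 402 and 409.9 CPM in TKO-2i and 553, 558 and 553 CPM in TKO-serum (log2 fold change -0.45), and Etv4, on chromosome 11, at 96.3, 88.6 and 95.2 CPM in TKO-2i and 67.1, 64.9 and 67.9 CPM in TKO-serum (0.49). For the 5 genes named the edgeR quasi-likelihood test, Benjamini-Hochberg adjusted, gave an adjusted p of at most 8.3e-05. ERK is known to mark the Bim protein for degradation and to stabilise Mcl1, effects on protein that these libraries do not measure. Over all 7 lists, 89 genes, 83 were tested, 28 called higher and 31 lower (median log2 fold change -0.06). These counts lie near the shares over all genes tested, 31.9% called higher and 30.6% lower. Tnfrsf1a and Tigar on chromosome 6 and Dynll2, Trp53, Trim17, Ccng1 and Etv4 on chromosome 11 share the chromosome medians of 0.41 and 0.26, whose part was not tested.

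Within genes, the division of TPM among transcripts was compared next, since splice forms of this family differ in activity. The 10 genes have 47 transcripts in the files, of which 23 in 8 genes could be tested. Of these, 0 were called by limma on arcsine-transformed shares with Benjamini-Hochberg adjustment over 30382 transcripts, of which 1.45% were called; 10 of the 23 did not overlap between groups (24.6% of all transcripts tested), 7 had an unadjusted p under 0.05 (16.3% of all), and edgeR's diffSpliceDGE called 1, Bax-203 (1.2% of all). The files hold no error of the division of reads between transcripts, so the spread between libraries is the only error used.

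Bax gave the lowest p among the shares of the 10 genes. Bax-201, which encodes the full-length effector, took, of the gene's TPM, 72.9, 70.3 and 71.3% in TKO-2i and 62.2, 60.6 and 62.1% in TKO-serum, and Bax-203, whose annotated exon retains the first intron (chr7:45466272-45466741, 470 bases), took 18.05, 19.8 and 19.1% in TKO-2i and 30.3, 30.9 and 29.9% in TKO-serum. No TKO-2i library reached a TKO-serum library for either. Bax-203 differed by -11.4 percentage points, TKO-2i minus TKO-serum, with an adjusted p of 0.0502 by limma with Benjamini-Hochberg adjustment, just over the threshold, and 0.0066 by diffSpliceDGE. For Bax-201 the difference was 9.89 points and the adjusted p 0.0895 by limma with Benjamini-Hochberg adjustment.

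In level, Bax-203 stood at 55.3, 57.3 and 58.3 TPM in TKO-2i and 103, 104 and 102 TPM in TKO-serum, and the Bax transcripts that span the same stretch without the intron at 243, 223 and 237 TPM and 231, 225 and 234 TPM. The intron-spliced form thus overlapped between the media, while the form with the intron did not. Bax-205 took 6.10, 6.48 and 6.50% in TKO-2i and 6.08, 6.47 and 6.06% in TKO-serum.

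Bcl2l11 is known for the forms BimEL, BimL and BimS, which differ by internal coding stretches. Bcl2l11-205, with 588 coding bases the longest form (BimEL), took, of the gene's TPM, 41.7, 51.7 and 44.4% in TKO-2i and 50.1, 58.97 and 59.1% in TKO-serum, and Bcl2l11-203, with 420 (BimL), 13.8, 8.81 and 3.68% in TKO-2i and 11.4, 5.93 and 7.91% in TKO-serum. Bcl2l11-202, with 273 coding bases, took 19.3, 16.5 and 19.96% in TKO-2i and 14.3, 18.2 and 15.6% in TKO-serum, and the non-coding Bcl2l11-206 16.97, 16.5 and 22.6% in TKO-2i and 5.11, 6.86 and 9.55% in TKO-serum. The long form was the most abundant in each library and overlapped between media, and Bcl2l11-206 was the transcript whose groups stood apart, with adjusted p 0.0998 by limma with Benjamini-Hochberg adjustment. It rested on 19, 18 and 25 counts in TKO-2i and 15, 26 and 30 in TKO-serum, so its count was about level while the rest of the gene was lower in TKO-2i.

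The 168 bases (56 codons) that separate the long form from BimL lie within 1 exon at chr2:128128757-128128924 and hold the region through which ERK acts on the protein. Of Bcl2l11 TPM spanning this place, transcripts with the stretch made up 49.98, 56.8 and 52.5% in TKO-2i and 62.4, 67.5 and 64.7% in TKO-serum, and without the rare Bcl2l11-206 60.2, 68.5 and 67.8% and 65.7, 72.5 and 71.6%, where the groups overlapped, so the gap between groups in the first set rested on that non-coding transcript. The stretch is shown because its use is what sets the forms apart, read from the GENCODE transcript, in capitals, with 20 coding bases on either side.
Bcl2l11-205: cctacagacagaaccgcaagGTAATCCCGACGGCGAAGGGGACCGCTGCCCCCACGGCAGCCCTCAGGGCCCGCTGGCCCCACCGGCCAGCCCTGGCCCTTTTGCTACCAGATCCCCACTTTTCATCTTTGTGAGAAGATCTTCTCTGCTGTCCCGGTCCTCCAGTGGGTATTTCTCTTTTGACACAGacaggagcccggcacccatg

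Mcl1 has an analogous choice inside its first exon. Mcl1-201, the full prosurvival form, took, of the gene's TPM, 90.5, 86.6 and 88.1% in TKO-2i and 84.6, 83.4 and 80.5% in TKO-serum, and Mcl1-202, which lacks 138 bases (46 codons) at chr3:95658909-95659046, took the rest, 9.53, 13.4 and 11.9% in TKO-2i and 15.4, 16.6 and 19.5% in TKO-serum. The groups did not overlap, but the difference of 5.56 points for Mcl1-201 was not called (adjusted p 0.254 by limma with Benjamini-Hochberg adjustment). The stretch, shown in capitals since it is all that Mcl1-202 lacks from its coding sequence, starts with GC and ends with GG and so lacks the GT and AG ends of a usual intron. It is rich in G and C, and whether Mcl1-202 arises in the cells was not tested.
Mcl1-201: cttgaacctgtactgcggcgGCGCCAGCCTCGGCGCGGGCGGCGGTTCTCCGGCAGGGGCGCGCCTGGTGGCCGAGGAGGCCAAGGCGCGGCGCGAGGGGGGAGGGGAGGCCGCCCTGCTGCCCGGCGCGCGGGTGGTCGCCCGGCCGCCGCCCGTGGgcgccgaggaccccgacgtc

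Bak1 is read in forms with and without a 20-base exon at chr17:27021663-27021682, minus strand, which shifts the reading frame; GENCODE classes the form with it, Bak1-201, as a target of nonsense-mediated decay. Bak1-201 took 41.5, 35.5 and 39.6% in TKO-2i and 32.1, 44.3 and 39.1% in TKO-serum, and Bak1-202, which encodes the full effector, 58.5, 64.5 and 60.4% in TKO-2i and 66.96, 55.7 and 60.9% in TKO-serum. The groups overlapped in both, so that both forms were higher in TKO-2i, Bak1-202 at means of 31.3 and 21.2 TPM in TKO-2i and TKO-serum. The exon is printed in capitals, with 20 bases of the neighbouring exons, as the 20 bases that decide between the forms.
Bak1-201: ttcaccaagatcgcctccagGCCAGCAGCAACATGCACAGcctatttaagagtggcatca

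Bcl2l1 is known for a long prosurvival form and a short form of opposite activity. Bcl2l1-201 and Bcl2l1-202, each with the 699 coding bases of Bcl-xL and with different first exons, took 73.7, 76.3 and 76.8% in TKO-2i and 70.2, 69.6 and 71.6% in TKO-serum for the first, and 5.05, 7.51 and 6.81% in TKO-2i and 12.2, 10.2 and 10.6% in TKO-serum for the second. Bcl2l1-203, with 564 coding bases, took 10.1, 10.96 and 9.98% in TKO-2i and 8.66, 8.95 and 7.38% in TKO-serum. Its annotated span stops at chr2:152829427, while those of Bcl2l1-201 and Bcl2l1-202 reach chr2:152780668 and chr2:152780672. It was not identified as the short form, and no share of the short form is given here. The groups did not overlap for any of the 3, and none was called (adjusted p 0.277, 0.198 and 0.450 by limma with Benjamini-Hochberg adjustment). A coding form of Bcl-xL was thus the bulk of the gene in all 6 libraries.

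The shares of the remaining genes follow. Bbc3-201, which encodes full-length Puma, took 59.8, 77.9 and 65.1% in TKO-2i and 71.5, 74.6 and 75.3% in TKO-serum, with Bbc3-202 between 9.37% and 24.7% over the 6 libraries and Bbc3-204 between 7.39% and 16.9%. Bmf-201 took 58.8, 59.2 and 76.5% in TKO-2i and 77.05, 64.2 and 62.1% in TKO-serum, and Bmf-202 was at 0 in 3 of 6 libraries. All of these overlapped between groups. Bmf-204 rested on 5 to 13 counts. Bcl2-201 took 52.5, 52.01 and 28.00% in TKO-2i and 64.5, 58.3 and 67.2% in TKO-serum, with the rest Bcl2-202. The groups did not overlap, and the difference of -19.2 points, the largest of the 23, was not called (adjusted p 0.309 by limma with Benjamini-Hochberg adjustment); it rested on 9, 8 and 9 counts of Bcl2-201 in TKO-2i and 21, 36 and 29 in TKO-serum, and on 3, 3 and 8 and 4, 9 and 5 of Bcl2-202. Bik was read as Bik-201 at 89.6% or more, and Pmaip1 as Pmaip1-201 alone.

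**Figure D3:**
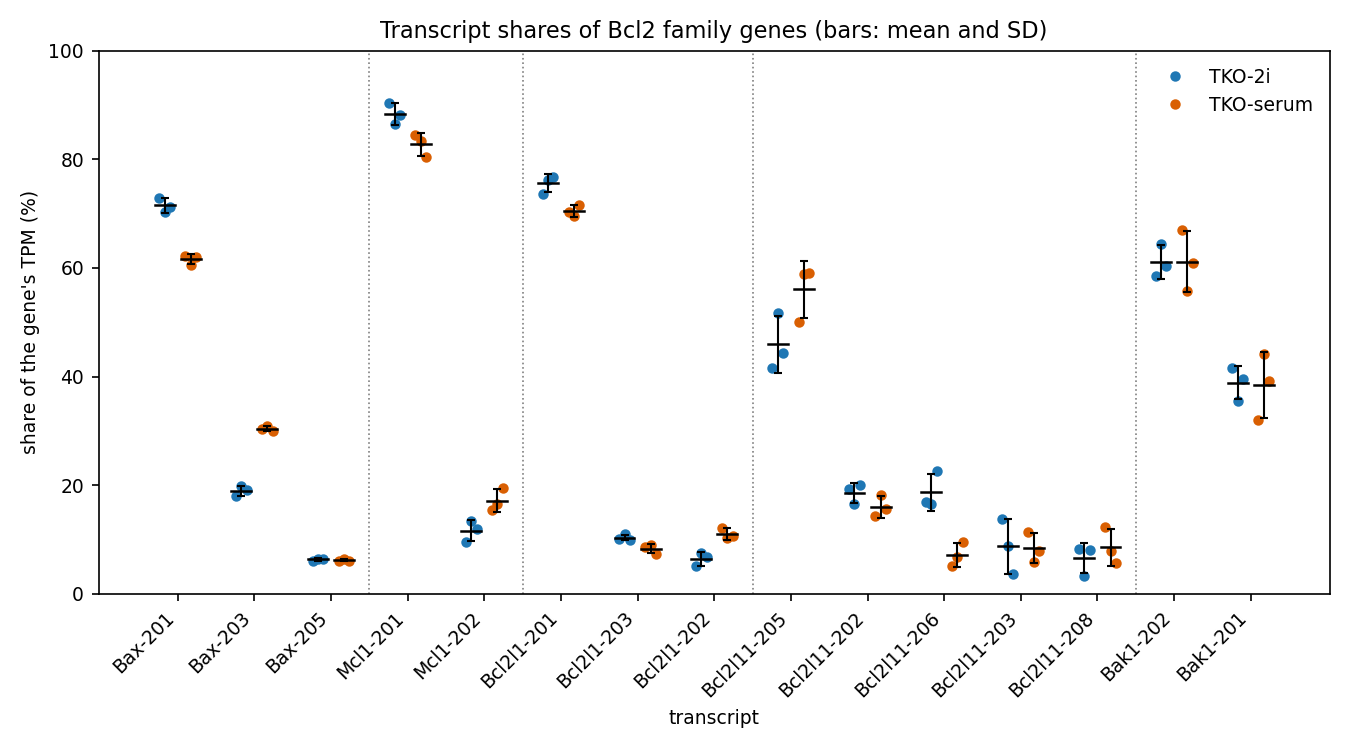
Share of the gene's TPM taken by each of the 15 tested transcripts of Bax, Mcl1, Bcl2l1, Bcl2l11 and Bak1, in percent, with 1 point per library and black bars for mean and SD. Bax-203 lies near 19.0% in TKO-2i and 30.4% in TKO-serum, and both Bak1 forms overlap between media.

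Promoters of the 10 genes were read next, as a description, and their part in the changes above was not tested. RefSeq (GRCm38.p6) gave 15 promoters for 8 of the 10 genes, without Bik and Pmaip1, and the 250 bases before each start were searched on both strands for 4 motifs, chosen with the results known, of factors downstream of the pathways above. The forkhead motif GTAAACA, present in 3.17% of all 32851 promoters, was in 2 of the 15, a promoter each of Bcl2l11 and Bbc3. Both genes also have promoters without it. The ETS motif CCGGAAG, in 6.91% of all, was in 2, of Bcl2l11 and Mcl1. The E-box CACGTG, in 6.02% of all, was in 2, of Bbc3 and Bax, and the TCF/LEF motif CTTTGAT, in 3.21% of all, was in 0. None of the 4 was in 10 promoters, among them those of Bmf and a further promoter each of Bcl2l11 and Bbc3. A match is a description and not a site of binding.

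The promoters of Bcl2l11 (chr2:128125788-128126037, plus strand), Bbc3 (chr7:16310011-16310260, plus strand) and Mcl1 (chr3:95658471-95658720, plus strand) are given because they hold the forkhead and ETS matches, in capitals. In Bcl2l11 the forkhead motif comes first and the ETS motif follows as its reverse complement, and in Bbc3 the forkhead motif is a reverse complement.
Bcl2l11 promoter: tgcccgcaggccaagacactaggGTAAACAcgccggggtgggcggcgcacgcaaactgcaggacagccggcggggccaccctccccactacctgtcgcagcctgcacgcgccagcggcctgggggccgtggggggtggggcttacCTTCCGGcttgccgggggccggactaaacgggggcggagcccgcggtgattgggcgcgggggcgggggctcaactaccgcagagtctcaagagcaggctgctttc
Bbc3 promoter: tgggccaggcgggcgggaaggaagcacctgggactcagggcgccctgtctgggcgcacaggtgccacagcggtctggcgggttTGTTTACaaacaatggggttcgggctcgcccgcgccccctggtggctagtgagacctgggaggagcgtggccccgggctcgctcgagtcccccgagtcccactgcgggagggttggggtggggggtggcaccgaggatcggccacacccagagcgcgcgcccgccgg
Mcl1 promoter: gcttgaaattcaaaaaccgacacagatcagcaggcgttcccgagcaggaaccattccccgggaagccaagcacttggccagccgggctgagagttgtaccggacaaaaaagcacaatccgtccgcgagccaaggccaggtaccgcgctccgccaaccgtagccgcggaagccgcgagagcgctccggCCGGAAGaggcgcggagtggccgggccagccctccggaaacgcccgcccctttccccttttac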

How the data were processed

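Poly(A) RNA of 3 TKO-2i and 3 TKO-serum cultures was measured. The authors deposited, per library, an estimated count and TPM for each of 136288 transcripts; the quantifier's version is not given in the sources used here. Names of GENCODE mouse M21 matched 99.9% of transcripts, and counts and TPM were summed per gene. Rounded counts were scaled by TMM (factors 0.970 to 1.03), filtered by filterByExpr and tested by edgeR 4.0.16 (biological coefficient of variation 0.09) in R 4.3.3; shares of TPM were tested by limma 3.58.1 after an arcsine square root transform, for transcripts with a mean share of at least 0.05 in genes with 2 or more such transcripts and at least 10 counts in every library. Adjusted p-values cover all genes or transcripts tested. The tests were tried on simulated data, where DESeq2, an alternative, made the most false calls among the gene tests and the limit set for alternatives was raised after this was seen. Alternatives were DESeq2 1.42.0 and its size factors, other filters, counts from length-scaled TPM, limma on log2 TPM, other share tests, a replicate block and leaving out each library. Named were the 10 genes, all other family genes and, per remaining list, up to 3 called rises and 3 called falls at a mean CPM of at least 1 and the gene with the highest TPM; genes named outside this rule are so marked. Genes and lists were chosen with earlier results of these data known. Tables and figures used Python 3.11.15, numpy 2.4.6, pandas 2.3.3 and matplotlib 3.10.9.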

Additional observations from a re-analysis of the deposited data

How the results depend on the processing

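Gene values were recomputed in up to 14 alternatives and shares in up to 11, fewer where a filter removed them. The 8 called genes of the 10 kept their direction and call in all 112 alternative values, and 1 was called higher and 7 lower in each alternative except limma on log2(TPM + 1) and log2(TPM + 0.1), where Bax made 8 lower. With single libraries left out, Bcl2l1 ran from -0.064 to 0.054 and crossed 0 (0.0052 without TKO-serum replicate 1), as did Bax from -0.16 to 0.025, Hrk from -0.18 to 0.092 and Bok from -0.049 to 0.099. Bok was -0.021 with at least 10 counts in every library, -0.058 with counts from length-scaled TPM and -0.15 in limma on log2(TPM + 0.1) and on log2(TPM + 1). With at least 10 counts in every library, 2 other family genes were lower in place of 4; without TKO-2i replicate 2, 3 of the apoptosome list were lower. Turnover genes called lower numbered 1 with DESeq2, its size factors, at least 10 counts, length-scaled TPM and both limma settings, 2 with no filter on low counts, 3 with the replicate block, 1 and 2 without TKO-2i replicate 1 and 2, and 0 without any of the other 4 libraries, and limma on log2(TPM + 1) called 1 higher. Member shares called numbered 1 by diffSpliceDGE, 2 at a mean share of at least 0.01, 2 with shares of estimated counts, 1 untransformed, and 0 with the replicate block or any library left out. Share differences that crossed 0 with libraries left out ran from -2.79 to 2.82 points for Bak1-202, -2.82 to 3.26 for Bak1-201, -8.78 to 1.69 for Bmf-201, -2.17 to 2.87 for Bcl2l11-203 and -2.82 to 1.94 for Bbc3-204; in diffSpliceDGE, on a log scale, Bmf-201 and Bbc3-204 gave 0.00842 and 0.00829. The cause was not tested in any of these. Libraries of the same number were paired as a block in 1 alternative, which called 6444 of all genes higher and 6095 lower. Their deviations from the group means correlated across genes at r = 0.380, 0.498 and 0.0638, genes not being independent replicates. Pairs of unlike number ran from r = -0.454 to 0.197, the highest being TKO-2i replicate 3 with TKO-serum replicate 1. Whether libraries of the same number share a batch was not tested. Limits are 3 libraries per group from 1 line, no protein data among the files used, and few counts for Bcl2, Bik, Bcl2l10 and Bcl2l15.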
